A study of Homo sapiens with 4 samples.

Results

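The hypoxia and glycolysis genes are a list of 45 genes that respond to low oxygen, sense it or carry out glycolysis, and their expression was compared between a PKP3 knockdown clone and its vector control. Members were the probes, other than controls, whose gene name on the array was on the list, and the brightest probe over the arrays stood for a gene with several. Of the 45 genes, 44 had a probe under their own name, together 73 of 50238 probes and 44 of 31033 gene names. KDM3A, a histone demethylase, had 3 probes under its older symbol JMJD1A and is given beside the list. CA9, a carbonic anhydrase that is a well known target of the hypoxia inducible factors, is left out of the list and serves as the point of reference. BHLHB2 and PKM2 are the array's names for the RefSeq genes BHLHE40 and PKM.

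Cells that lack oxygen switch on genes through the hypoxia inducible factors (HIF), which pair an oxygen regulated alpha subunit with ARNT at short DNA elements near their target genes. When oxygen is present, prolyl hydroxylases of the EGLN family mark the alpha subunit, and the VHL protein then directs it to degradation. The targets raise glucose uptake and glycolysis, lactate export, vessel growth, turnover of mitochondria and collagen modification, and several prolyl hydroxylases are targets themselves.

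RNA was hybridized to 4 single color arrays, with 2 arrays for the PKP3 knockdown clone (shpkp3-2) and 2 for its vector control (vec). Both clones derive from HCT116, a human colorectal carcinoma line, and were made by stable transfection, shpkp3-2 with a plasmid encoding an shRNA against PKP3 (plakophilin 3, a desmosomal plaque protein) and vec as its vector control. Both were kept under drug selection at 5 μg/ml, with puromycin per the labels and blasticidin per the methods of the study. No sample was labelled as kept at low oxygen. Each group is a single clone, so the knockdown and other differences between the clones cannot be told apart. The RNA of vec 1 and shpkp3-2 1 was collected at one time and that of vec 2 and shpkp3-2 2 at another, called the first and second collection here. The labels call the arrays of a clone biological replicates, and p-values measure only the spread between them.

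The arrays lay on 1 slide with 1 scan, at separate positions, with the shpkp3-2 arrays at the first positions and the vec arrays at the next, so that position and clone cannot be told apart. Between 60.5% and 63.5% of spots were well above background, and the 75th percentile of the signal was 499 on vec 1 and between 374 and 381 on the other arrays. Values below are scaled intensities, the signal divided by that percentile of its array, and they are comparable between arrays for 1 probe but not between probes. Of 10 markers of colon epithelium, all 4 arrays detected 8 above background, and none detected CEACAM5. The fibroblast markers COL1A2, COL3A1, DCN, LUM and PDGFRB, the leukocyte marker PTPRC and the endothelial markers PECAM1 and CDH5 were on no array well above background. CD68, on the leukocyte list, was higher in shpkp3-2 by a log2 fold change of 1.43 (limma, adjusted p = 0.0459).

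PKP3 was measured at scaled intensities of 41.8 and 59.9 on the vec arrays and of 9.01 and 8.23 on the shpkp3-2 arrays. Both shpkp3-2 arrays lay far below both vec arrays, with a log2 fold change of -2.54 (SE 0.23, limma, adjusted p = 0.0188). CA9 was at 0.0898 and 0.0644 in vec and at 0.646 and 1.19 in shpkp3-2. It was up-regulated 11.5-fold, a log2 fold change of 3.53 (SE 0.34, limma, adjusted p = 0.0226), and it was higher in each collection, by 2.85 and by 4.21 on the log2 scale. As the RNA came from whole cultures, more or fewer cells with a transcript and more or less of it per cell cannot be told apart. Without vec 2 the CA9 difference was 3.29 and the adjusted p from limma was 0.0646. With normexp background correction, which adds an offset of 50 to every signal, the CA9 difference was 2.27 on the log2 scale (limma, adjusted p = 0.00473). That setting changes the background method and adds the offset at once, so their parts in the smaller value cannot be told apart. With a weaker detection flag the adjusted p from limma was 0.145 for PKP3 and 0.167 for CA9, so both calls depended on the detection filter. These genes set the scale for the 42 members that could be tested.

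The window around the start site is shown for the members on which the results below turn, EGLN1 and PGK1, whose arrays differed most between the clones, and ANKRD37, DDIT4 and BHLHB2, which moved together across the collections. The sequences are from RefSeq (GRCh38.p14), 250 bases before to 50 bases after the start, on the gene's strand, and capitals mark ACGTG or GCGTG on either strand, the core letters of the hypoxia response element.
EGLN1: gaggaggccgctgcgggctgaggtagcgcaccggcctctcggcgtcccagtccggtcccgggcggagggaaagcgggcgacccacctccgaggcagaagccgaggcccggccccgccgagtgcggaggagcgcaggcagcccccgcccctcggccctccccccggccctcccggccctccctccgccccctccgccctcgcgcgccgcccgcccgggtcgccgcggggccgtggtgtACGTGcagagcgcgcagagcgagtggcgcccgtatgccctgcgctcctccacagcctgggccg
PGK1: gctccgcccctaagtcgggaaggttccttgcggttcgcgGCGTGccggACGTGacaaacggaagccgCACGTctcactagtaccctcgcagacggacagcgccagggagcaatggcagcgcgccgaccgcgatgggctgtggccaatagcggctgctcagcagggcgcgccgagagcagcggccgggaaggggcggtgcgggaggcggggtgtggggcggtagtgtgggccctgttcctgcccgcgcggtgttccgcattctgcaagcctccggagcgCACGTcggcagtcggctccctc
ANKRD37: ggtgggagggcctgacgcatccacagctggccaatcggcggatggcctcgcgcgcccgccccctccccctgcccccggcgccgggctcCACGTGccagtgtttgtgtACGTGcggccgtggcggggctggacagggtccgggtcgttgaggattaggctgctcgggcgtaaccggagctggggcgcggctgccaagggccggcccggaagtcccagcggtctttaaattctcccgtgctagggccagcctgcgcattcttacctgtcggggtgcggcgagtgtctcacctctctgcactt
DDIT4: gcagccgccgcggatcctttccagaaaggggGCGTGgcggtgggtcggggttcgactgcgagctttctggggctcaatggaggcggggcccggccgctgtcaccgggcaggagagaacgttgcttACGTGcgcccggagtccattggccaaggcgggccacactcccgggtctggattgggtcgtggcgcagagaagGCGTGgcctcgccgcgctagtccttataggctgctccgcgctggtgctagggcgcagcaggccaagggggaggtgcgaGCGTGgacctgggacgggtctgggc
BHLHB2: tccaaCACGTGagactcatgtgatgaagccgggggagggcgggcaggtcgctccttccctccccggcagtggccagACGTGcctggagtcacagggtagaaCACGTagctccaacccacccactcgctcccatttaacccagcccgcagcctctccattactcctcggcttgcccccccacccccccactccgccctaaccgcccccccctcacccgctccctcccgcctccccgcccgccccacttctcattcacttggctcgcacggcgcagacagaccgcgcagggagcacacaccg
They lie at chr1:231422238-231422537 (minus strand), chrX:78103998-78104297, chr4:185396591-185396890, chr10:72273674-72273973 and chr3:4979187-4979486 (all plus strand), in the order shown. A match at CACGTG counts on both strands, and these letters are also those of the E-box bound by other factors. Of the 44 genes, 39 had a window in the RefSeq table, and 27 of them (69.2%) held ACGTG or GCGTG, as did 13213 of all 27305 promoter windows (48.4%). ACGTG alone was in 17 of the 39 (43.6%) against 21.6% of all windows, and by role it was in 5 of 7 windows of HIF target genes outside glycolysis, 7 of 16 of glycolysis, 3 of 5 of collagen modification, 2 of 4 of oxygen sensing, 0 of 3 of HIF subunits and 0 of 4 of flux control and lactate export. These are matches of letters and describe no binding.

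No member was called as higher or as lower in shpkp3-2 with limma at an adjusted p under 0.05, among 42 tested. Over all 30512 probes tested, 75 (0.246%) were called as higher and 44 (0.144%) as lower, together 0.39%, so that calls were rare in general. At an unadjusted p under 0.05 from limma, EGLN1 and P4HA2 were higher and PGK1 was lower, 4.76% and 2.38% of the members against 7.61% and 4.51% of the 20228 genes tested. No member was past 2-fold on each shpkp3-2 array, against 1.23% of genes higher and 0.633% lower. The log2 fold change was above 0 for 19 members and below 0 for 23, so 45.2% were higher against 58.3% of all genes, and the median was -0.05 against 0.06. Both shpkp3-2 arrays lay above both vec arrays for 5 members (11.9%, against 28.4% of genes) and below them for 9 (21.4%, against 17.2%). Without shpkp3-2 1 the median was 0.13 and without shpkp3-2 2 it was -0.22, with 26 and 9 members higher.

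A difference of more than 2-fold between the clones lay outside the 95% limma interval for 28 of the 42 members (66.7%), against 78.2% of all genes. The interval reached past 2-fold for the other 14, of which 8 were HIF target genes outside glycolysis. For these the arrays could not show whether a 2-fold difference was present. LOX, a collagen cross-linking enzyme, was on no array well above background. SLC2A3, a glucose transporter, was well above background on shpkp3-2 2 alone, so that neither gene was tested.

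**Figure D1:**
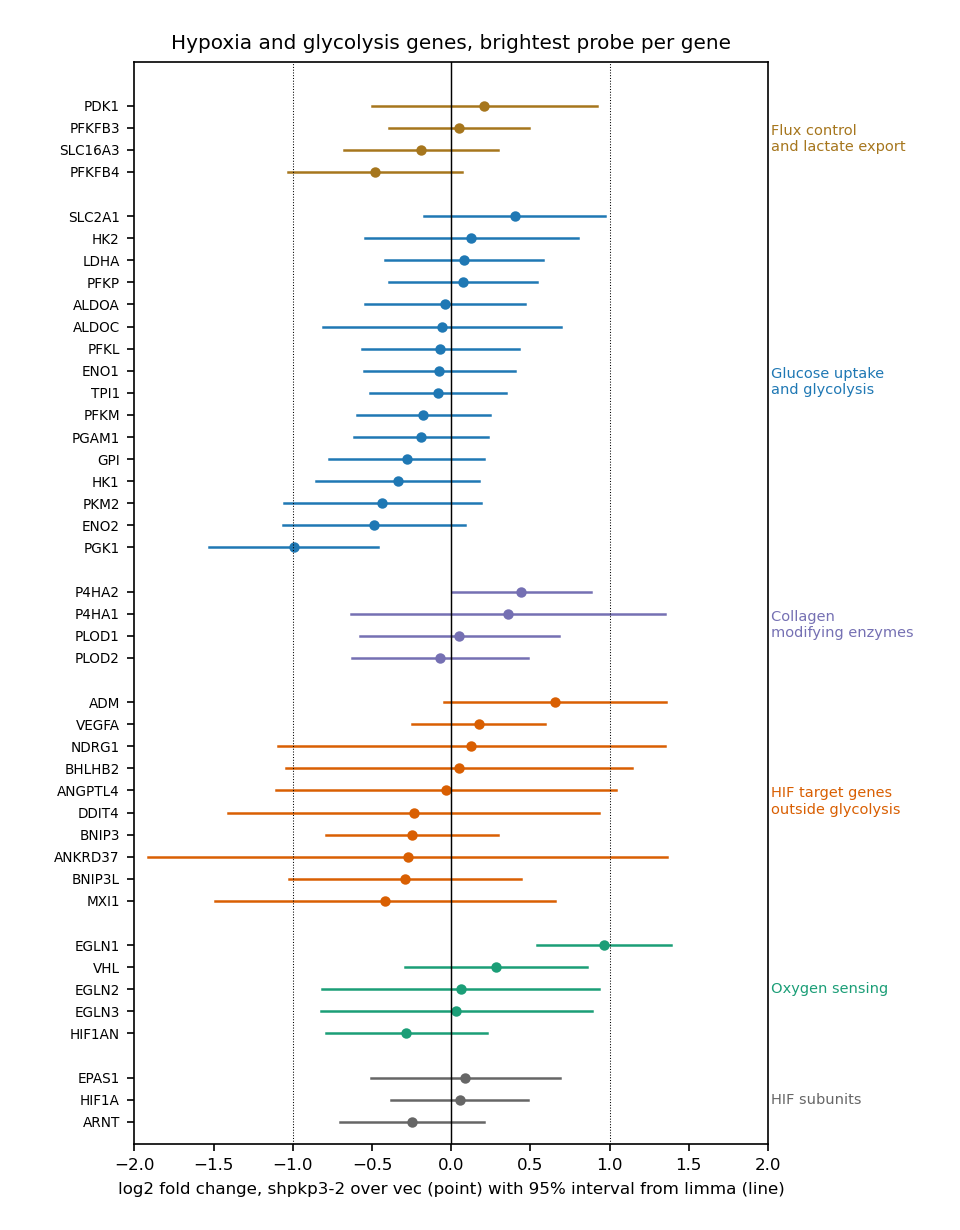
Log2 fold change of shpkp3-2 over vec for the 42 members tested (horizontal axis), 1 gene per line, grouped by role. Points are the estimates and lines the 95% limma intervals over 2 arrays per clone, and dotted lines mark 2-fold. EGLN1 lies farthest to the right at 0.97 and PGK1 farthest to the left at -0.996, and the widest intervals are those of HIF target genes outside glycolysis.

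The HIF subunits gave values near 0, with the 95% interval within 2-fold for 3 of 3. HIF1A, the oxygen regulated alpha subunit present in most cells, was at scaled intensities of 3.71 and 3.45 in vec and of 3.87 and 3.55 in shpkp3-2. The clones overlapped, with a log2 fold change of 0.05 (SE 0.18, 95% interval -0.38 to 0.49). EPAS1, which encodes the alpha subunit of HIF-2, was at 11.5 and 7.998 in vec and at 9.17 and 11.3 in shpkp3-2, a log2 fold change of 0.09 (SE 0.24). Its high arrays were vec 1 and shpkp3-2 2. ARNT, the shared partner subunit, was at 0.509 and 0.428 in vec and at 0.4004 and 0.386 in shpkp3-2 (log2 fold change -0.25, SE 0.19), and its other probe gave 0.17, so the probes disagreed in sign.

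Among the oxygen sensing genes, EGLN1 had the highest value. It encodes PHD2, the main prolyl hydroxylase that sets the level of the HIF alpha subunit. Its scaled intensities were 4.93 and 5.16 in vec against 9.57 and 10.2 in shpkp3-2. The arrays of each clone lay close together and the clones did not overlap, with a log2 fold change of 0.97 (SE 0.17, 95% interval 0.54 to 1.39, limma, adjusted p = 0.129), the highest of the members. The difference was 0.96 in the first collection and 0.98 in the second, and the other EGLN1 probes gave 0.95 and 0.89 (limma, adjusted p = 0.253 and 0.226). With normexp background correction the value was 0.91 (limma, adjusted p = 0.0343), and with a trended and robust prior the adjusted p from limma was 0.0457, so the call depended on the setting.

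The clones overlapped for the other prolyl hydroxylases. EGLN3, an inducible target of HIF, was at 0.989 and 0.573 in vec and at 0.605 and 0.981 in shpkp3-2, high on vec 1 and shpkp3-2 2, and its log2 fold change was 0.03 (SE 0.35). EGLN2 was at 1.65 and 3.38 in vec and at 2.75 and 2.21 in shpkp3-2, with the opposite order of the arrays and a log2 fold change of 0.06 (SE 0.36). HIF1AN, the asparaginyl hydroxylase that blocks HIF from its coactivators, was at 0.353 and 0.467 in vec and at 0.332 and 0.336 in shpkp3-2, lower on both shpkp3-2 arrays by a log2 fold change of -0.28 (SE 0.21, limma, adjusted p = 0.612). VHL was at 113 and 156 in vec and at 146 and 180 in shpkp3-2 with its brightest probe, a log2 fold change of 0.28 (SE 0.23). That probe was designed on another mRNA record than that of RefSeq, and the probe for the RefSeq transcript gave -0.26, so the probes disagreed in sign.

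The 10 HIF target genes outside glycolysis spread widely between arrays of the same clone. Their median SD on the log2 scale was 0.30 in vec and 0.49 in shpkp3-2, against 0.20 and 0.12 over all genes tested. The high arrays were in most cases vec 1 and shpkp3-2 2 and the low arrays vec 2 and shpkp3-2 1. The clones did not overlap for 2 of the 10, against 9217 of the 20228 genes tested. The median log2 fold change was -0.14 against 0.06 over all genes, with 4 above 0 (40%, against 58.3% of all genes) and 6 below. The adjusted p from limma was between 0.435 and 0.983.

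ANKRD37, an ankyrin repeat protein and strong HIF target, was the clearest case, at 13.9 and 7.18 in vec and at 4.12 and 16.6 in shpkp3-2. It was lower in shpkp3-2 by 1.76 on the log2 scale in the first collection and higher by 1.21 in the second, and the fit over both gave -0.27 (SE 0.67, 95% interval -1.91 to 1.36). NDRG1, a stress response gene, was at 57.1 and 38.0 in vec and at 30.2 and 85.7 in shpkp3-2, with differences of -0.92 and 1.18 in the collections. Its weaker probe gave -1.76 and 0.38. DDIT4 (REDD1), an inhibitor of mTOR signalling, was at 43.3 and 34.7 in vec and at 19.5 and 55.3 in shpkp3-2, with differences of -1.15 and 0.67. In these genes shpkp3-2 1 was the lowest and shpkp3-2 2 the highest of the arrays.

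BHLHB2, a transcriptional repressor, was at 1.48 and 0.622 in vec and at 0.784 and 1.25 in shpkp3-2, with differences of -0.91 and 1.01. ANGPTL4, a secreted inhibitor of lipoprotein lipase, had differences of -0.87 and 0.80, MXI1, an antagonist of MYC, of -1.28 and 0.44, and BNIP3L, a mitophagy receptor, of -0.88 and 0.30. BNIP3, a mitophagy receptor too, was at 32.3 and 27.3 in vec and at 21.6 and 28.9 in shpkp3-2, with a log2 fold change of -0.25 (SE 0.22). Each of these was lower in shpkp3-2 in the first collection and higher in the second. KDM3A, measured under its older symbol, had differences of -1.53 and 0.35 for its brightest probe and a log2 fold change of -0.59 (SE 0.42, limma, adjusted p = 0.603).

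The shpkp3-2 arrays were both above the vec arrays for 2 genes of the group (20%, against 28.4% of all genes) and both below for none (17.2% of all genes). ADM, the vasodilator adrenomedullin, was at 40.7 and 31.7 in vec and at 44.3 and 72.2 in shpkp3-2. Both shpkp3-2 arrays lay above both vec arrays, by a log2 fold change of 0.66 (SE 0.29, 95% interval -0.04 to 1.36, limma, adjusted p = 0.435), and the difference was 0.12 in the first collection and 1.19 in the second. VEGFA, the angiogenic growth factor, was at 0.362 and 0.366 in vec and at 0.404 and 0.417 in shpkp3-2, a log2 fold change of 0.17 (SE 0.17). Its other probes gave -0.13, -0.13 and 0.22, so the probes disagreed in sign.

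**Figure D2:**
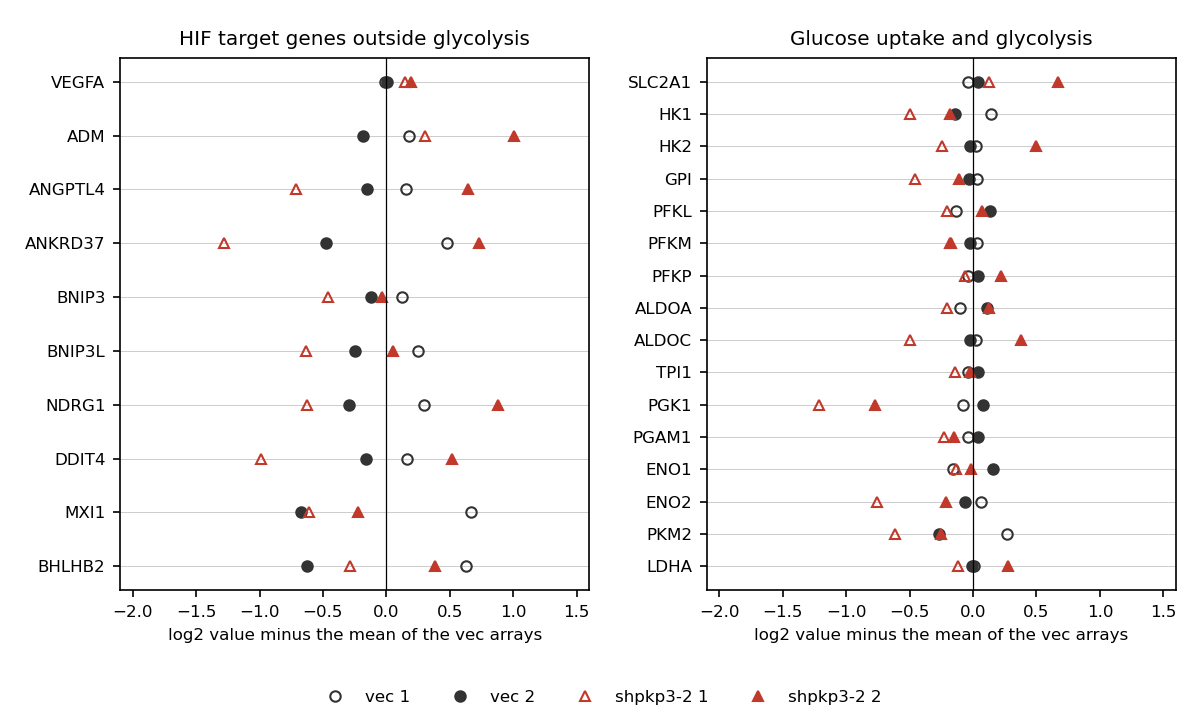
Log2 value of each array minus the mean of the vec arrays (horizontal axis) for the 10 HIF target genes outside glycolysis (left) and the 16 genes of glucose uptake and glycolysis (right) that were tested. Circles are vec and triangles shpkp3-2, open for the first RNA collection and filled for the second. On the left the open triangles lie to the left of the filled ones in every gene, and for ANKRD37, NDRG1 and DDIT4 they enclose the vec arrays. On the right the spread is smaller, and both triangles of PGK1 lie to the left of its vec arrays.

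The collections were then set side by side for the whole list, as a description, since with 1 array per clone and collection the difference between collections could not be tested. Of the 10 HIF target genes outside glycolysis, 8 were lower in shpkp3-2 in the first collection and higher in the second, against 18.8% of the 20228 genes. Their median difference was -0.90 in the first collection and 0.74 in the second. The second difference exceeded the first by more than 1 on the log2 scale for 8 of the 10, against 4.87% of genes. The value on shpkp3-2 2 was above that on shpkp3-2 1 for 10 of 10 (47.9% of genes), and for 9 of 10 the order was reversed in vec as well (26.2% of genes). Ranked by the second difference minus the first, ANKRD37 (2.97) was 14th of the 20228 genes, NDRG1 (2.09) was 63rd, BHLHB2 (1.92) was 90th and DDIT4 (1.82) was 116th.

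Over all 42 members, 20 (47.6%) were lower and then higher, and 39 (92.9%) were higher on shpkp3-2 2 than on shpkp3-2 1. P4HA1, the alpha subunit of a collagen prolyl hydroxylase, had differences of -0.52 and 1.23, and PDK1, the kinase that holds back pyruvate dehydrogenase, of -0.33 and 0.75. The dimmer probe of PDK1 did not change sign, with differences of 0.06 and 0.83. With quantile normalization the count of HIF target genes lower and then higher was 9, with normexp 8 and with median centring 7 of 10. CA9 was higher on shpkp3-2 2 than on shpkp3-2 1 and lower on vec 2 than on vec 1 as well, by 0.89 and by -0.48 on the log2 scale. The arrays with the higher levels, vec 1 and shpkp3-2 2, were also those with more spots well above background, 63.5% and 63.0% against 60.5% and 60.9%, and the part of this in the pattern was not tested.

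**Figure D3:**
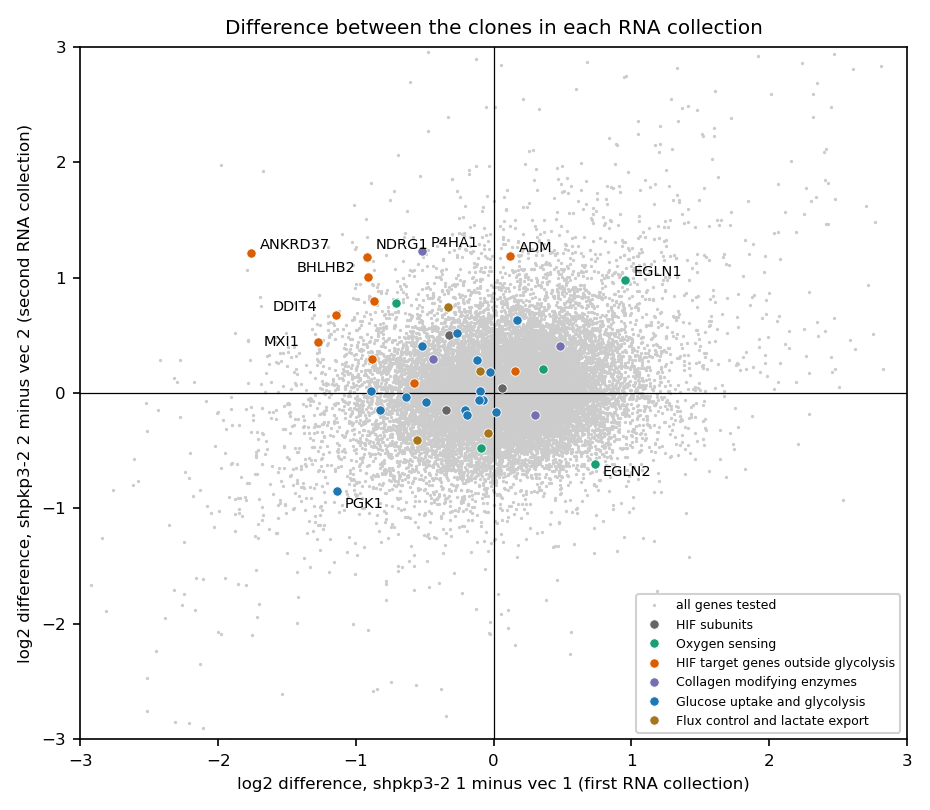
Log2 difference between shpkp3-2 and vec in the first RNA collection (horizontal axis) and in the second (vertical axis), for all genes tested in grey and the 42 members in color by role, with 59 genes beyond the axes. Most HIF target genes outside glycolysis lie in the upper left, below 0 in the first collection and above 0 in the second, while EGLN1 (0.96 and 0.98) and PGK1 (-1.14 and -0.85) lie near the diagonal.

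Collagen modifying enzymes, which hydroxylate or cross-link collagen, had a median log2 fold change of 0.20 over 4 genes tested. P4HA2, the alpha subunit of a second collagen prolyl hydroxylase, was at 6.96 and 7.85 in vec and at 9.72 and 10.4 in shpkp3-2. Both shpkp3-2 arrays were higher, by a log2 fold change of 0.44 (SE 0.18, limma, unadjusted p = 0.0490, adjusted p = 0.404), and its other probe gave 0.27. The value was 0.36 (SE 0.40) for P4HA1, 0.05 for PLOD1 and -0.07 for PLOD2.

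Of 16 genes of glucose uptake and glycolysis, 12 had a log2 fold change below 0 and 4 above (25%, against 58.3% of all genes). The median was -0.08 against 0.06 over all genes. In the first collection 14 were lower in shpkp3-2 (median -0.20), while in the second 7 were higher (median -0.05), so the count below 0 rested more on the first. For 6 of them (37.5%, against 17.2% of all genes) the shpkp3-2 arrays were both below the vec arrays, and for SLC2A1 alone (6.25%, against 28.4% of all genes) both above. PGK1, phosphoglycerate kinase, the enzyme of the first step of glycolysis that yields ATP, had scaled intensities of 135 and 150 in vec and of 61.1 and 83.0 in shpkp3-2. The clones did not overlap, and shpkp3-2 was at 50.2% of vec, a log2 fold change of -0.996 (SE 0.22, 95% interval -1.53 to -0.46, limma, adjusted p = 0.185). With the RNA collection as a block the adjusted p from limma was 0.0424, in a fit that called 2.76% of all probes, 1.65% as higher and 1.11% as lower, and with normexp the value was -1.02 (limma, adjusted p = 0.0499). The difference was -1.14 and -0.85 in the collections, and the other PGK1 probes tested gave -0.99 and -1.02 (limma, adjusted p = 0.241 and 0.145).

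The neighbours of PGK1 in the pathway had smaller differences. The log2 fold change was -0.08 (SE 0.17) for TPI1, triosephosphate isomerase, -0.19 (SE 0.17) for PGAM1, phosphoglycerate mutase, -0.07 (SE 0.20) for ENO1, the main enolase, and -0.49 (SE 0.24) for ENO2, the neuronal enolase. At the entry of glycolysis it was -0.34 for the hexokinase HK1, 0.13 for HK2, the inducible hexokinase, and -0.28 for GPI, glucose-6-phosphate isomerase. The phosphofructokinases PFKL, PFKM and PFKP were at -0.07, -0.18 and 0.08, the aldolases ALDOA and ALDOC at -0.04 and -0.06, and the pyruvate kinase PKM2 at -0.44. Leaving out 1 array at a time moved PKM2 between -0.70 and -0.17 and ENO2 between -0.76 and -0.21, and the collections gave -0.89 and 0.02 for PKM2 and -0.82 and -0.15 for ENO2. The adjusted p from limma was at least 0.475 for each of these.

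SLC2A1 (GLUT1), the glucose transporter of most cells and a classical HIF target, was at 15.1 and 15.9 in vec and at 16.9 and 24.7 in shpkp3-2. Both shpkp3-2 arrays were above the vec arrays, shpkp3-2 2 by far the more, with a log2 fold change of 0.40 (SE 0.23, 95% interval -0.17 to 0.97, limma, adjusted p = 0.543). LDHA, the lactate dehydrogenase subunit that turns pyruvate into lactate, was at 88.8 and 87.9 in vec and at 81.6 and 106.99 in shpkp3-2. The clones overlapped, with a log2 fold change of 0.08 (SE 0.20). All 16 genes were higher on shpkp3-2 2 than on shpkp3-2 1 (15 of 16 with median centring), and for none of them did the second difference exceed the first by more than 1.

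Genes that control glycolytic flux or export lactate showed small differences in both directions. PDK1 was at 0.985 and 0.768 in vec and at 0.782 and 1.29 in shpkp3-2, with the clones overlapping (log2 fold change 0.21, SE 0.29). Its dimmer probe gave 0.45 (SE 0.25, limma, adjusted p = 0.526), with both shpkp3-2 arrays above both vec arrays. PFKFB4, a kinase that makes the activator of phosphofructokinase, was at -0.48 (SE 0.22) and lower on both shpkp3-2 arrays. PFKFB3, of the same family, was at 0.05, and its other probes gave -0.04, 0.04 and 0.57, the last with a dim probe. SLC16A3 (MCT4), the lactate exporter, was at -0.19. The adjusted p from limma for the brightest probes was at least 0.456.

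**Figure D4:**
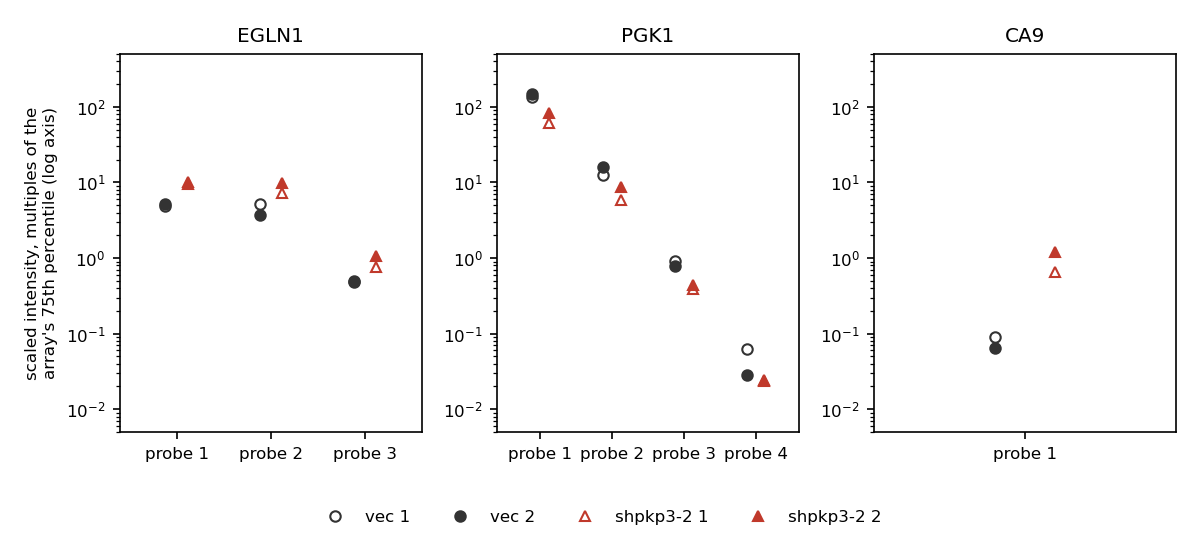
Scaled intensity (log axis, multiples of the 75th percentile of the array) of every probe of EGLN1, PGK1 and CA9, with circles for vec and triangles for shpkp3-2, open for the first RNA collection and filled for the second. Both triangles lie above both circles for the 3 probes of EGLN1 and for CA9, and below them for the probes of PGK1, of which the dimmest was not tested.

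Without the alternative settings, further genes of the same pathways, not members, gave no call with limma either. Of 35 further hypoxia genes 29 were tested, 20 above 0 and 9 below. The share above 0 was 69% against 58.3% of all genes, and the median was 0.18 against 0.06. At an unadjusted p under 0.05 from limma, 0 were higher and 1 lower (3.45%), against 7.61% and 4.51% of all genes. That gene was LOXL2, a lysyl oxidase like enzyme, at 6.47 and 4.89 in vec and at 1.73 and 3.22 in shpkp3-2, a log2 fold change of -1.25 (SE 0.33, limma, adjusted p = 0.249). With the RNA collection as a block its adjusted p from limma was 0.0129, in a fit that called 1.11% of all probes as lower. The highest value was that of HMOX1, heme oxygenase, at 0.74 (SE 0.53, limma, adjusted p = 0.604). Of these 29 genes, 13 (44.8%) were lower in the first collection and higher in the second, against 18.8% of all genes.

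Of 30 further genes of glycolysis and pyruvate use 24 were tested, 13 above 0 and 11 below. The share above 0 was 54.2% against 58.3% of all genes, and the median was 0.03 against 0.06. At an unadjusted p under 0.05 from limma, 0 were higher and 1 lower (4.17%, with the same shares of all genes as above), the pyruvate dehydrogenase kinase PDK2 at -0.45. Of the 24 genes, 7 (29.2%) were lower and then higher. The log2 fold change of CA9, 3.53 or 2.27 with normexp, stood beside 42 members of which none was past 2-fold on each shpkp3-2 array in either setting, a rule that 1.23% of all genes passed as higher and 0.633% as lower without normexp, so the count of 0 is near the share in general.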

How the data were processed

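Total RNA of the clones was labelled with Cy3 and hybridized to single color Agilent arrays of a custom design on hg18. The authors deposited scanner tables of Agilent Feature Extraction (version 9.1 per the labels, 10.7.3.1 per the file headers), in which the processed signal is an intensity on a linear scale after detrending and background subtraction, with no normalization between arrays. The deposited mean and background intensity columns were used for the normexp alternative, and the 0 or 1 flags of the software, another kind of value, for detection and outliers.

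The log2 of the processed signal minus the 75th percentile over 51538 spots that are not controls was computed per array. Spots flagged as not uniform (26 to 39 per array) were left out and spots of a probe averaged, which gave 50117 of 50238 probes with a value on all 4 arrays. No spot was saturated, and the lowest intensity well above background was between 8.41 and 9.74. Testing used lmFit and eBayes of limma 3.58.1 (R 4.3.3) on 30512 probes, those that 1 clone or both showed well above background on both its arrays, with Benjamini-Hochberg adjustment over all of them, and a threshold of 0.05. With 2 against 2 arrays an exact two-sided permutation test cannot go below p = 0.333, so none is given. The number of arrays limits the precision. A count past 2-fold on each shpkp3-2 array, a filter the study names for these arrays, is given without a test. For its functional classification of genes altered in these same HCT116 clones, the study used a lower fold.

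The replicate numbers pair the arrays, since the series' design text states that same-numbered arrays share an RNA collection. The correlation of their deviations from the clone means was -0.20. RefSeq symbols were assigned to 28590 probes through the accession, 3001 through the symbol and 1176 through an older symbol. Named members follow a rule: those called, past 2-fold or under an unadjusted p of 0.05, the HIF subunits, VHL, the prolyl hydroxylase genes, VEGFA, SLC2A1, PGK1, LDHA, PDK1, BNIP3, NDRG1 and ADM with array values, the others by fold change or range. Array values of ANKRD37, DDIT4, BHLHB2 and HIF1AN were added after the values were seen. The ends of the list of further glycolysis genes are not reported here. The members, lists and rule were chosen with earlier results of these data known. The script was tested on simulated data. Alternatives were normexp, quantile normalization, median centring, a floor, other detection filters, another prior, the mean over probes, the collection as a block and leaving out each array.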

Additional observations from a re-analysis of the deposited data

Results flagged for a closer look

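For 8 members the shpkp3-2 array lay on opposite sides of the vec array in the RNA collections, by at least 0.5 on the log2 scale in each. The difference in the second collection minus that in the first was 2.97 for ANKRD37, 2.09 for NDRG1, 1.92 for BHLHB2, 1.82 for DDIT4, 1.75 for P4HA1, 1.66 for ANGPTL4 and 1.49 for EGLN3, from lower to higher in shpkp3-2. It was -1.35 for EGLN2, from higher to lower. With 1 array per clone and collection these differences between collections were not tested.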

How the results depend on the processing

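The design limits the comparison to 1 clone of each kind with 2 arrays, on 1 slide. With normexp 1 member was called as higher (EGLN1) and 1 as lower (PGK1), with the trended and robust prior 1 as higher (EGLN1), and with the replicate block 1 as lower (PGK1). In the other settings that adjust p-values no member was called, and at an unadjusted p under 0.05 there were 2 higher and 1 lower. With quantile normalization both shpkp3-2 arrays lay above both vec arrays for 3 members (7.14%, against 23.5% of all genes) and below them for 12 (28.6%, against 21.3%). The median log2 fold change of the members was between -0.12 with median centring and -0.04 without a filter, and the sign of 3 members turned with normexp, of 4 with quantile normalization, of 6 with median centring and of 2 with the mean over probes. None of these members was called. The probes called as higher and lower, 75 and 44, were 109 and 64 with normexp, 42 (higher) with quantile normalization, 10 and 8 without a filter on detection, 25 and 21 with detection on all 4 arrays, 1 and 1 with the weaker detection flag, 503 and 338 with the replicate block, and 114 (higher) with the trended and robust prior. Probes past 2-fold, 341 and 190, were 104 and 55 with normexp, 661 and 519 without a filter, 202 and 120 with detection on all 4 arrays and 661 and 454 with the weaker flag. Without a filter the limma adjusted p was 0.135 for PKP3 (-2.54) and 0.136 for CA9 (3.53), and with the weaker flag it was 0.145 (-2.54) and 0.167 (3.53). More and dimmer probes enter these fits, and beyond that the cause was not tested.

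Leaving out 1 array at a time, 108 to 243 probes were called as higher and 55 to 154 as lower, 431 to 1179 were past 2-fold higher and 320 to 672 lower, and 0 to 3 members were past 2-fold. No member was called, 9 to 26 were higher, with a median of -0.22 to 0.13, and the sign of 6 members turned without vec 1 and of 10 without each other array. PKP3 was between -2.80 and -2.28 and CA9 between 3.09 and 3.97. The lone array of a clone is assumed to vary like the other clone. The replicate block, the RNA collection, changed no member's call other than that of PGK1 and gave EGLN1 a limma adjusted p of 0.05005. A crossed pairing, vec 1 with shpkp3-2 2, added after seeing the data, called 64 probes as higher, 40 as lower and 0 members.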
